A study of Sus scrofa with 15 samples.

Results

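The terminal complement components and the receptor for C5a were followed in porcine kidney after renal ischemia. The set held 8 genes, C5, C6, C7, C8A, C8B, C8G, C9 and C5AR1. Every array probe whose RefSeq accession belonged to one of these pig genes was taken, whatever its values, which gave 13 of the 43603 probes on the array. The 8 genes were among 3020 genes that had a probe named in this way. Of the 13 probes, 10 were well above background, by the scanner software's own flag, on all arrays of at least 1 group.

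Complement is a cascade of plasma proteins that can be started by antibody, by lectins or on any unprotected surface. All routes meet at enzymes that cleave C3 and then C5. Cleavage of C5 releases C5a, a small peptide that draws in and activates myeloid cells through C5AR1, and leaves C5b, which binds C6, C7, C8 and several copies of C9 to form the membrane attack complex, a pore in the target membrane. The liver makes most of the circulating terminal components, and injured kidney can also transcribe complement genes locally.

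All samples were kidney tissue of female Yorkshire pigs taken 72 hours after ischemia. In every group the left kidney had been removed, so that the animal lived on its right kidney, and that kidney underwent 90 minutes of warm ischemia by clamping of its artery and vein. The control group had no ischemic preconditioning (IPC). The early group (rIPCe) had remote IPC, by clamping and release of the right external iliac artery, immediately before the renal ischemia, and the late group (rIPCl) had the same remote IPC 24 hours before it. Each group had 5 pigs with 1 array per pig. No group was spared the renal ischemia, so the control arrays gave the level in injured kidney and not in resting kidney. The methods give all pigs the same age.

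The arrays read total RNA with a single dye, and the values given are log2 signals after quantile normalization. A signal was compared only with the same probe on other arrays, because different probes have different brightness. The summed signals of marker lists add different probes, so the brightest probes weigh most in them. The share of spots well above background was 62.2% to 69.5% in control, 67.4% to 73.9% in rIPCe and 71.8% to 74.2% in rIPCl, and no spot was saturated. The tissue label was checked with SLC34A1, GATM, CALB1, AQP2, WT1 and PECAM1, genes of nephron segments, podocytes and endothelium, and all 6 were well above background on 15 of 15 arrays. The arrays lay on 4 slides: control 1 to 4 on the first, control 5 with rIPCe 1 to 3 on the second, rIPCe 4 and 5 with rIPCl 1 on the third, and rIPCl 2 to 5 on the fourth. No slide held both a control and an rIPCl array, so that comparison could not be made within a slide.

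In rIPCl, C5 (its brighter probe) and C7 rose against control and C9 fell, each by a little less than 2-fold. C6 was 2.76-fold and 2.93-fold higher than control in rIPCl on its 2 brighter probes, and 2.80-fold and 2.71-fold higher in rIPCe. With the p unadjusted, these C6 differences met the study's thresholds, a 2-fold change and a p under 0.05 (called the unadjusted criteria here). By limma, the main test here, none of them reached an adjusted p under 0.05. With the test named in the study's methods, adjusted likewise, both probes reached it in rIPCl and neither did in rIPCe. The C5AR1 mean lay above control in rIPCl on both probes, by 1.89-fold and 1.45-fold, without passing either rule. C8G did not pass a test in either group, and C8A and C8B were not well above background on any array.

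Among the 10 measured probes, 3 met the unadjusted criteria in rIPCl versus control, all of them C6 and all higher. One of these, C6 probe 3, was well above background on 1 control array and counted as measured through the rIPCl group, where it was higher. Of the 8 probes well above background on all 15 arrays, 2 met the criteria, C6 probes 1 and 2. Over the whole array 5.83% of probes met these criteria in the same comparison, and 3.67% did so with a higher signal. Among the 29864 probes measured by the same background rule the share was 5.27%. An adjusted p under 0.05 from limma, whatever the fold, was reached by 3 of the 10, against 6.27% of all probes. These 3 were C5 probe 1, C7 and C9 probe 1. None of the 10 combined a 2-fold change with an adjusted p under 0.05, which 2.26% of all probes did, while 9 of the 10 had an unadjusted p under 0.05, against 26.8% of all probes. The median log2 fold change of the 10 probes was 0.90, beside -0.03 over all probes. All 5 rIPCl arrays lay above all 5 control arrays for 5 of the 10 probes, those of C5 and C6, which 2.72% of all probes showed, and below them for 1, C9 probe 1, which 6.76% showed. Of the 8 probes above background on all 15 arrays, 4 lay above control in this way and 1 below. The 10 probes stood for 6 genes, so they were not separate observations.

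In rIPCe versus control, 3 of the 10 probes met the unadjusted criteria, again the 3 of C6 (2 of the 8 above background on all arrays), against 2.18% of all probes (1.27% with a higher signal) and 1.62% of those measured. No member had an adjusted p under 0.05 there by limma, and 0.00229% of all probes did. An unadjusted p under 0.05 was found for 5 of the 10, against 14.1% of all probes. The median log2 fold change of the 10 was 0.39, beside -0.01 over all probes. The rIPCe and rIPCl comparisons shared the 5 control arrays, so that their values stand side by side here without an overlap being drawn from them.

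**Figure D1:**
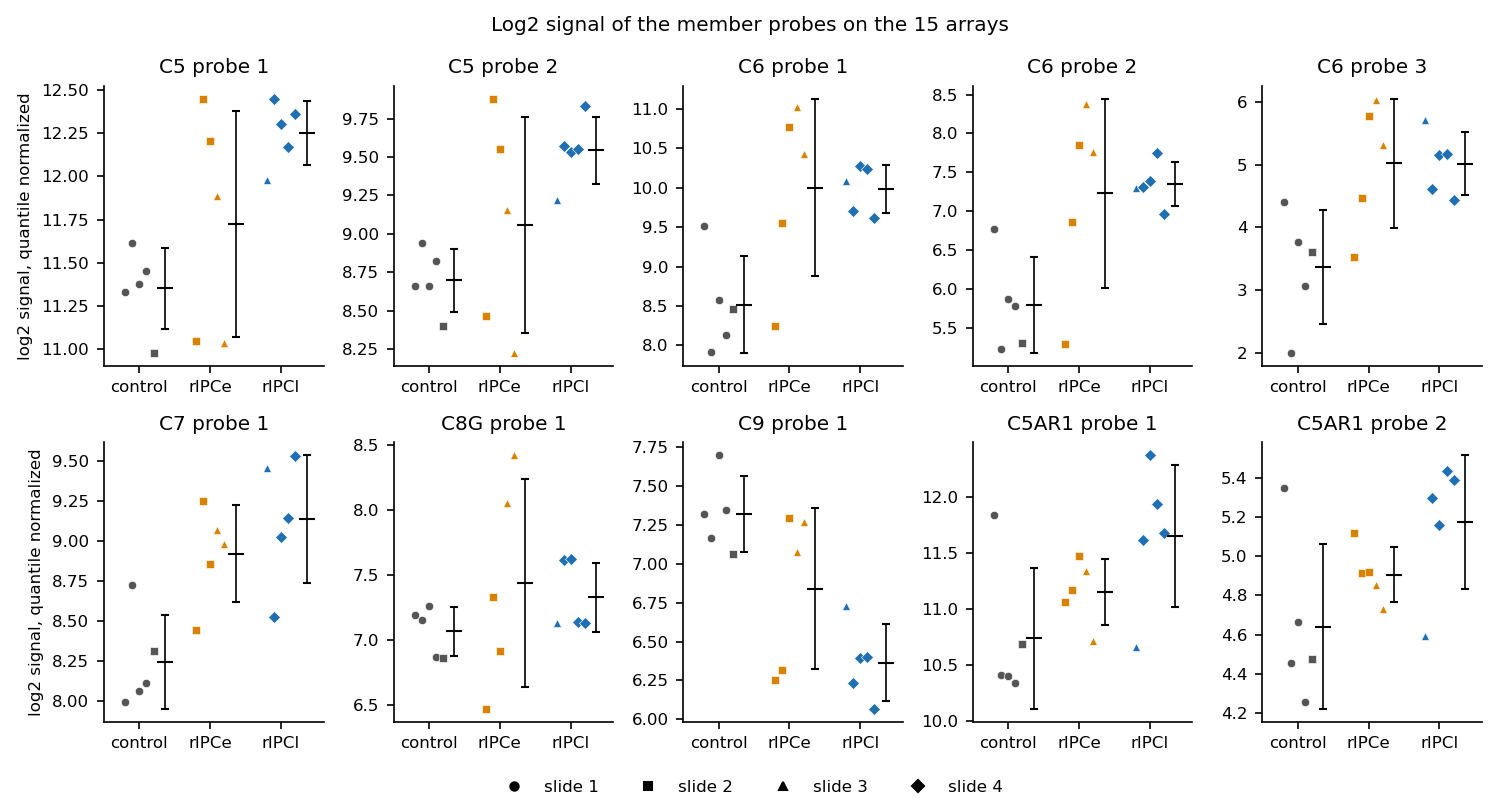
Log2 signal after quantile normalization (vertical axes, a separate scale for each panel) of the 10 measured probes on each of the 15 arrays, by group. Each point is 1 pig, its shape gives the slide, and the black bar beside each group is the mean with the SD (n = 5); the rIPCl points of C5 and C6 lie above every control point, and those of C9 lie below every control point. C6 probe 3 was well above background on 1 control array.

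C5 is the protein from which C5a and C5b are cut. Its brighter probe (C5 probe 1) read 11.33, 11.62, 11.38, 11.45 and 10.98 in control 1 to 5, and 11.98, 12.45, 12.30, 12.17 and 12.36 in rIPCl 1 to 5. No rIPCl array was as low as any control array. The rIPCe arrays read 11.05, 12.45, 12.21, 11.89 and 11.03, of which 3 were above every control array and the other two, rIPCe 1 and 5, were inside the control range.

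The C5 means were 11.35 ± 0.23 in control, 11.73 ± 0.65 in rIPCe and 12.25 ± 0.18 in rIPCl (SD, n = 5). C5 probe 1 rose in rIPCl by 0.90 on the log2 scale (SE 0.25, 95% confidence interval 0.36 to 1.44, limma adjusted p = 0.04996). The exact permutation test, two-sided over all assignments of the 10 arrays, gave p = 0.00794, the smallest it can give with 5 against 5. The rIPCe difference was 0.37 (interval -0.17 to 0.92, limma adjusted p = 0.518). In bulk tissue, a higher level of RNA per cell and a larger share of cells that carry the RNA cannot be told apart, and this holds for every value given here.

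The dimmer probe of C5 (C5 probe 2) gave 8.70 ± 0.21 in control, 9.05 ± 0.70 in rIPCe and 9.54 ± 0.22 in rIPCl. Its rIPCl arrays, at 9.22 to 9.84, again all exceeded the control arrays, at 8.40 to 8.94. The difference was 0.85 (SE 0.27), with a limma adjusted p of 0.0678. Across the 15 arrays the 2 probes of C5 had a Pearson r of 0.984, and rIPCe 1 and 5 were the 2 lowest rIPCe arrays on each.

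The C5 call rested on a value close to the threshold. It was lost when any of 9 of the 10 arrays compared was left out, with adjusted p from 0.0656 to 0.102, and kept without rIPCl 1, at 0.0409. The log2 difference stayed between 0.81 and 0.97. A random block for slide gave a difference of 0.97 and an adjusted p of 0.249.

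C6 is the first protein to join C5b, and the pair then binds C7. C6 probe 1, its brightest, read 9.51, 7.92, 8.57, 8.13 and 8.47 in control 1 to 5. It read 8.25, 9.55, 10.76, 11.02 and 10.43 in rIPCe 1 to 5, and 10.08, 9.71, 10.27, 10.24 and 9.62 in rIPCl 1 to 5. Every rIPCl array was above every control array, while in rIPCe 4 of 5 were above and rIPCe 1 lay inside the control range.

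The C6 probe 1 means were 8.52 ± 0.61 in control, 10.00 ± 1.13 in rIPCe and 9.98 ± 0.30 in rIPCl. The log2 difference from control was 1.46 in rIPCl (SE 0.45, interval 0.49 to 2.43, limma unadjusted p = 0.00596 and adjusted p = 0.0636). In rIPCe it was 1.48 (SE 0.45, interval 0.51 to 2.45, limma unadjusted p = 0.0055 and adjusted p = 0.212), with an exact two-sided permutation p of 0.0476. The group means of rIPCe and rIPCl differed by -0.02, and the interval of that difference, -0.99 to 0.95, did not exclude a difference of almost 2-fold either way.

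C6 probe 2 read 5.22 to 6.77 in control, 5.28 to 8.38 in rIPCe and 6.96 to 7.75 in rIPCl, with differences from control of 1.44 in rIPCe and 1.55 in rIPCl. C6 probe 3 was dim, being well above background on 1 control array, 4 rIPCe arrays and 5 rIPCl arrays. It read 1.99 to 4.41 in control, 3.52 to 6.04 in rIPCe and 4.44 to 5.71 in rIPCl, and no difference is given for it because 4 of its 5 control signals were not well above background. On probe 2, as on probe 1, no rIPCl array reached down to the control range, and 4 of 5 rIPCe arrays lay above it. The limma adjusted p of probe 2 was 0.0630 in rIPCl and 0.224 in rIPCe.

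Probe 1 of C6 had a Pearson r across the 15 arrays of 0.979 with probe 2. On both, control 1 was the highest control array and rIPCe 1 the lowest rIPCe array. Without control 1 the rIPCl difference of C6 probe 1 was 1.71 (limma adjusted p = 0.0392). Without any other single array of those compared it was 1.31 to 1.56, with adjusted p from 0.0741 to 0.143. Without rIPCe 1 the rIPCe difference was 1.92 (limma adjusted p = 0.0301). Without any other single array it was 1.23 to 1.73, with adjusted p from 0.132 to 0.416.

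The C6 difference between groups also moved with the slides. Within the second slide the 3 rIPCe arrays exceeded the single control array by 1.06 on probe 1, whereas within the third slide the single rIPCl array was 0.64 below the mean of the 2 rIPCe arrays (a difference of -0.64). With slide as a fixed block, which joins the groups only through those 2 slides, the rIPCl difference of C6 probe 1 was 0.41 (limma adjusted p = 0.946) and the rIPCe difference 1.06 (adjusted p = 0.730). With slide as a random block they were 1.33 (adjusted p = 0.325) and 1.45 (adjusted p = 0.456). The part of the slides in the C6 difference was not tested.

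**Figure D2:**
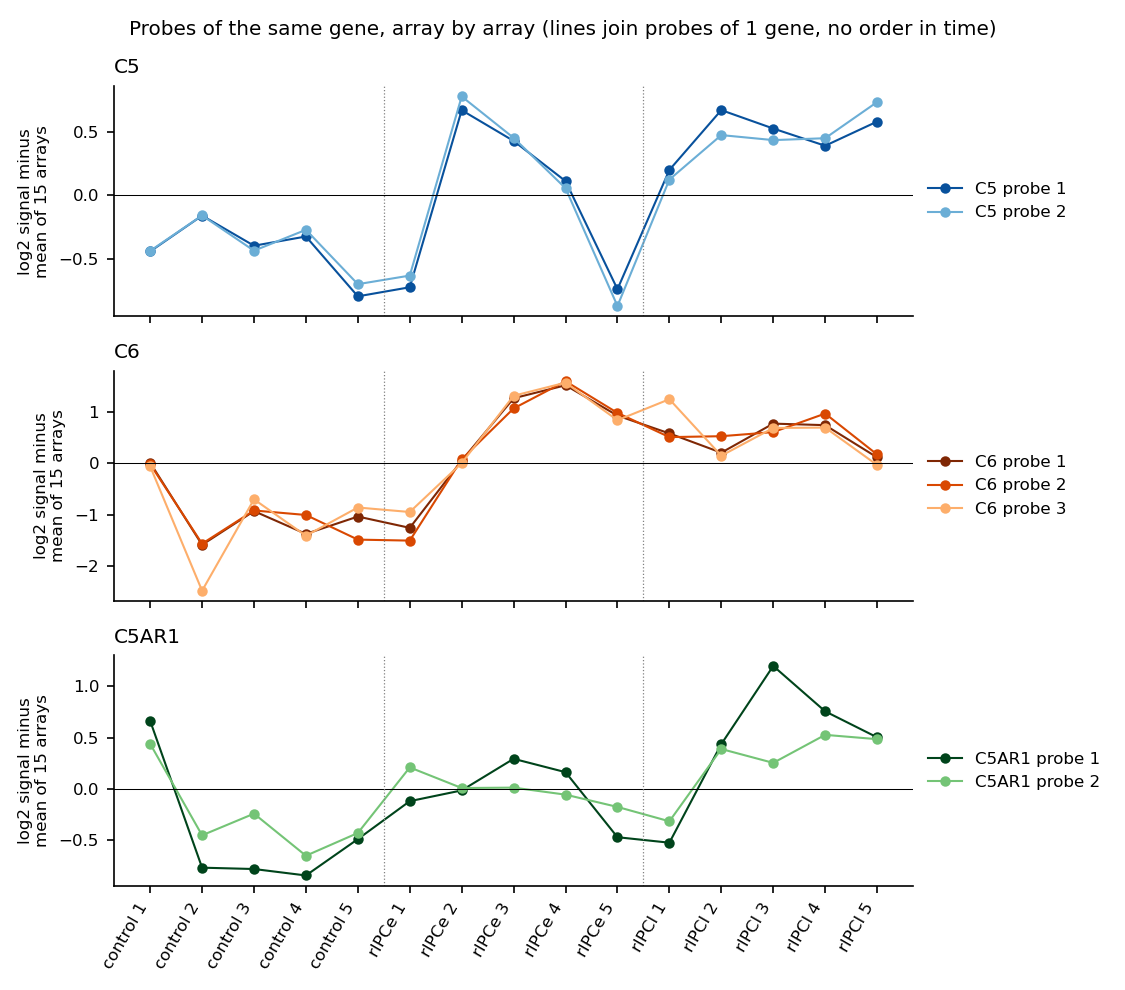
Probes of C5, C6 and C5AR1 on the 15 arrays (horizontal axis, control 1 to rIPCl 5), as log2 signal minus the mean of that probe over the 15 arrays (vertical axes). Lines join the values of 1 probe and carry no order in time; probes of a gene follow each other, with r of 0.984 for C5, 0.979 for C6 probes 1 and 2 and 0.874 for C5AR1, C6 probe 3 is dim on 4 control arrays, and rIPCe 1 sits with the control arrays for C5 and C6.

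C7 gives the growing complex its hold on the membrane, and it had 1 probe. C7 read 7.99, 8.72, 8.06, 8.11 and 8.31 in control 1 to 5, and 9.45, 8.53, 9.03, 9.14 and 9.53 in rIPCl 1 to 5. Of the rIPCl arrays, 4 were above every control array and rIPCl 2 lay below control 2. The rIPCe arrays read 8.44, 9.25, 8.85, 9.07 and 8.98, again with 4 of 5 above every control array.

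C7 rose in rIPCl from 8.24 ± 0.29 to 9.14 ± 0.40, by 0.89 on the log2 scale (SE 0.21, interval 0.45 to 1.34, limma adjusted p = 0.0318, exact two-sided permutation p = 0.0159). In rIPCe it was 8.92 ± 0.30, a difference of 0.68 (interval 0.23 to 1.12, limma unadjusted p = 0.00573 and adjusted p = 0.212, exact two-sided permutation p = 0.0159). The rIPCl group minus the rIPCe group gave 0.22 (interval -0.23 to 0.66), so the levels of the 2 treated groups were not separated by the test. Leaving out 1 array kept the rIPCl difference between 0.80 and 1.05, and the adjusted p passed 0.05 in 6 of the 10 cases, reaching 0.0715. A random block for slide gave 0.91 and an adjusted p of 0.232.

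C7 is known to be transcribed by fibroblasts and vascular cells, so the markers of stroma and of endothelium were set beside it. Of 8 listed stromal genes 4 had a probe, and all 4 were well above background on every array. LUM, which encodes the matrix proteoglycan lumican, rose in rIPCl from 9.12 ± 0.47 to 10.60 ± 0.51 (log2 difference 1.49, limma adjusted p = 0.0450), while DCN had 0.96 (adjusted p = 0.0709), COL1A2 0.91 (adjusted p = 0.175) and ACTA2 0.17 (adjusted p = 0.716). The summed linear signal of the 4 ranged from 38029 to 55631 in control, from 44751 to 97190 in rIPCe and from 41442 to 92330 in rIPCl. Array rIPCl 2 had the lowest C7 and also the lowest stromal sum of its group, 41442. Control 2 went the other way, with the highest C7 of its group, 8.72, and the lowest stromal sum, 38029. Of 5 listed endothelial genes 3 had a probe. In rIPCl versus control VWF differed by 0.46 (limma adjusted p = 0.282), PECAM1 by -0.03 (adjusted p = 0.925) and CDH5 by -0.12 (adjusted p = 0.705). The part of stromal and endothelial markers in the values of C7, C5 and C6 was not tested.

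C8 is built of 3 chains from separate genes, C8A, C8B and C8G. C8A and C8B encode the chains that insert into the membrane, and these 2 genes are neighbours in the pig RefSeq annotation. C8A read 1.43 to 2.47 and C8B 1.38 to 3.21 on the log2 scale, and each was well above background on 0 of 15 arrays. On every array both lay below the dimmest signal that counted as well above background, which was between 3.18 and 4.71. No fold is given for them.

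C8G encodes the small chain, a lipocalin, and was well above background on all 15 arrays. C8G read 6.86 to 7.26 in control, 6.47 to 8.43 in rIPCe and 7.13 to 7.62 in rIPCl. Its rIPCe range held the whole control range, with rIPCe 4 and 5 at 8.06 and 8.43 and rIPCe 1 at 6.47. Differences from control were 0.37 in rIPCe (interval -0.27 to 1.02, limma adjusted p = 0.591) and 0.26 in rIPCl (interval -0.38 to 0.91, limma adjusted p = 0.607). On the third slide, rIPCl 1 minus the mean of rIPCe 4 and 5 was -1.11, and with slide as a fixed block the rIPCl difference from control turned to -1.06 (adjusted p = 0.377).

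C9 supplies the copies that line the pore, and it was the member that fell. C9 probe 1 read 7.32, 7.16, 7.70, 7.34 and 7.06 in control 1 to 5, and 6.73, 6.24, 6.39, 6.40 and 6.07 in rIPCl 1 to 5. All 5 rIPCl arrays were below all 5 control arrays. The rIPCe arrays fell into separate ranges, with rIPCe 1 and 2 at 6.25 and 6.32 and rIPCe 3, 4 and 5 at 7.29, 7.07 and 7.27, inside the control range.

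C9 probe 1 had means of 7.32 ± 0.24 in control, 6.84 ± 0.52 in rIPCe and 6.36 ± 0.25 in rIPCl. The rIPCl difference was -0.95 (SE 0.22, interval -1.42 to -0.48, limma adjusted p = 0.0316, exact two-sided permutation p = 0.00794). The rIPCe difference was -0.48 (interval -0.95 to -0.01, limma unadjusted p = 0.0479 and adjusted p = 0.349). Within the second slide rIPCe minus control was -0.44, and within the third rIPCl minus rIPCe was also -0.44. Without 1 array the rIPCl difference ranged from -1.04 to -0.86, and the adjusted p was over 0.05 in 7 of the 10 cases, up to 0.0711. A random block for slide gave -0.93 and an adjusted p of 0.227. After normexp background correction, which compresses dim signals, the difference was -0.53 (adjusted p = 0.0176).

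The second probe of C9 was well above background on 0 of 15 arrays, so the fall of C9 was seen with 1 probe only. The lower level of C9 in rIPCl stood beside a higher level of C5 and C7 in the same group.

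C9, C8A and C8B are among the components that liver makes, and liver genes were therefore read in the same tissue. Of 8 listed hepatocyte genes 5 had a probe. SERPINA1 was well above background on 0 of 15 arrays and ALB on 13, while APOA1, TF and TTR were so on all 15. The linear signals of the 5 summed to 12003 to 35658 on the control arrays. The rIPCe arrays had 7491 to 15214 and the rIPCl arrays 6036 to 12801, lower by their medians than control, as the C9 means were. This sum was carried by TF, APOA1 and TTR, with control means of 13.52, 12.01 and 11.65 on the log2 scale, against 5.27 for ALB. TTR, which encodes the thyroid hormone carrier transthyretin, and TF, which encodes transferrin, met the unadjusted criteria in rIPCl, with log2 differences of -3.39 (limma adjusted p = 0.0569) and -2.78 (adjusted p = 0.0916). These 2 genes, of 4 measured, stand beside 5.83% of all probes that met the criteria. APOA1 differed by 0.19 (adjusted p = 0.625) and ALB by 0.03 (adjusted p = 0.977), so that of the 4 measured genes 2 were higher and 2 lower. The part of liver genes in the C9 result was not tested.

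C5AR1 is the signalling receptor for C5a, carried mainly by neutrophils, monocytes and macrophages. C5AR1 probe 1 read 11.84, 10.41, 10.40, 10.34 and 10.69 in control 1 to 5, and 10.66, 11.62, 12.38, 11.94 and 11.68 in rIPCl 1 to 5. It read 11.06, 11.17, 11.47, 11.34 and 10.71 in rIPCe. The groups overlapped through 2 arrays, control 1, which was higher than the other control arrays by more than 1 on the log2 scale, and rIPCl 1, which lay inside the control range.

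The means of C5AR1 probe 1 were 10.74 ± 0.63 in control, 11.15 ± 0.29 in rIPCe and 11.65 ± 0.63 in rIPCl. The rIPCl difference was 0.92 (SE 0.33, interval 0.22 to 1.62, limma unadjusted p = 0.0139 and adjusted p = 0.0952, exact two-sided permutation p = 0.0556). The rIPCe difference was 0.41 (interval -0.29 to 1.11, limma adjusted p = 0.583). Without control 1 the rIPCl difference was 1.19 (limma adjusted p = 0.0243), and without rIPCl 1 it was 1.17 (adjusted p = 0.0306). Without any other single array of those compared it was 0.74 to 0.93, with adjusted p from 0.113 to 0.208. A fixed block for slide gave 0.17 (adjusted p = 0.977).

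C5AR1 probe 2 was dim, above background on 4 control arrays and on all others. It read 4.26 to 5.35 in control, 4.73 to 5.12 in rIPCe and 4.59 to 5.43 in rIPCl. Control 1 was again the highest control array and rIPCl 1 the lowest rIPCl array. The rIPCl difference was 0.53 (SE 0.20, limma adjusted p = 0.110), smaller than on probe 1.

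Markers of myeloid cells were read beside the receptor. Of 7 listed macrophage and monocyte genes 3 had a probe, all well above background on every array. AIF1, an actin-binding protein of macrophages, differed from control in rIPCl by 0.85 (limma adjusted p = 0.0601), the scavenger receptor gene CD163 by 0.90 (adjusted p = 0.210) and the endotoxin co-receptor gene CD14 by -0.12 (adjusted p = 0.836). Their summed linear signal was 16233 on control 1 and 5274 to 7652 on the other control arrays, 8031 to 12699 in rIPCe, 8827 on rIPCl 1 and 13854 to 20429 on the other rIPCl arrays. Control 1 and rIPCl 1 thus stood apart from their groups in these markers as they did in C5AR1. Of 7 listed neutrophil genes 3 had a probe, S100A8, S100A9 and S100A12. Summed, they gave 135 to 2059 on the control arrays, with the highest on control 1. Across rIPCe the sums ran from 151 to 920. On rIPCl 1, the lowest rIPCl array for C5AR1, the neutrophil sum was 1461, the highest of its group. Other rIPCl arrays had 203 to 703, so rIPCl 1 stood apart in the opposite direction to C5AR1 here. All 6 listed genes of T and NK cells had a probe and all 6 were higher in rIPCl than in control, with a median log2 difference of 1.25. CD2, CD3D, CD3E and CD8A met the unadjusted criteria, 4 of the 6, beside 5.83% of all probes. None had an adjusted p under 0.05 by limma. Their signals summed to 2020 to 3913 in control, with the highest on control 1, to 1734 to 3630 in rIPCe and to 2807 to 8404 in rIPCl, with the lowest on rIPCl 1. Whether these cell markers had a part in the C5AR1 values was not tested.

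**Figure D3:**
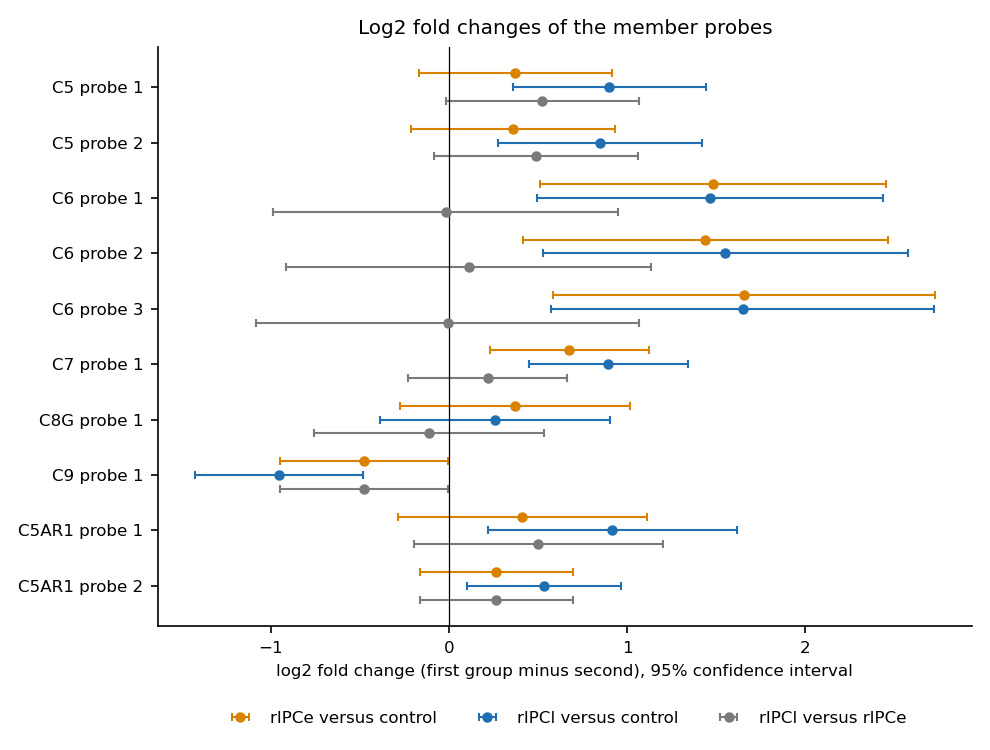
Log2 fold change (horizontal axis) with the 95% confidence interval from limma for the 10 measured probes (vertical axis) in the 3 comparisons, n = 5 arrays a group. The intervals of C6 probes 1 and 2 for rIPCe and rIPCl against control lie above 0 and nearly coincide, those of C6 probe 3 rest on 4 control signals not well above background, those of C9 lie below 0, and the intervals of rIPCl versus rIPCe reach 0 or come within 0.01 of it.

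The late group was also set against the early group directly. Of the 10 probes 6 were higher in rIPCl, and 0 met the unadjusted criteria, which 0.525% of all probes did. None had an adjusted p under 0.05 by limma, nor did any probe of the array, and 1 of 10 had an unadjusted p under 0.05, against 3.85% of all probes. That probe was C9 probe 1, with a difference of -0.48 (limma unadjusted p = 0.0488 and adjusted p = 0.979). C5 probe 1 had 0.53 (interval -0.02 to 1.07) and C5AR1 probe 1 had 0.50. The group means of C5, C7, C9 and C5AR1 ran in the order control, rIPCe, rIPCl. Neighbours in that order were not separated after adjustment, while the means of C6 in rIPCe and rIPCl were level.

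The spread inside rIPCe was wider than inside rIPCl for several members. The SD in rIPCe was 0.65 for C5 probe 1, 1.13 for C6 probe 1 and 0.80 for C8G, against 0.18, 0.30 and 0.26 in rIPCl. It was narrower for others, at 0.29 against 0.63 for C5AR1 probe 1, 0.14 against 0.34 for C5AR1 probe 2 and 0.30 against 0.40 for C7. Array rIPCe 1 was the lowest of its group for C6, C7, C8G and C9, and was low for C5 together with rIPCe 5. It also had the lowest summed signal of its group for the 4 stromal markers, 44751, and for the 4 proximal tubule markers with a probe, 28077. No test of the spread was made, and the part of these markers in it was not tested.

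How the members went together over the 15 arrays is given as a description, since arrays share group and slide. C5 probe 1 had an r of 0.63 with C7, and 0.26 after the group means were taken out. C6 probe 1 had an r of 0.60 with C8G and 0.57 after the group means were taken out. C6 and C9 had an r of -0.15 over all arrays and of 0.72 once the group means were taken out, pooled over the 3 groups.

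The genes most like each member were taken as the 3 with the highest Pearson r among 2376 genes well above background on all 15 arrays. For C5AR1 these were ITGB2 (r = 0.963), which encodes the beta chain of leukocyte integrins, STAT2 (r = 0.945), a transcription factor of interferon signalling, and FCGR3A (r = 0.940), an Fc receptor of myeloid and NK cells. With the group means taken out the r values were 0.946, 0.937 and 0.902. For C7 the 2 highest were MMP2 (0.853), a matrix metalloproteinase, and CYP39A1 (0.848), a sterol hydroxylase.

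For C5 the nearest genes were C1S (0.849), a protease of the first complement component, LUM (0.829) and TNFSF13B (0.828), the B cell survival factor BAFF. C6 went with DCTN4 (0.924), RGL2 (0.912) and RPL13A (0.912), which encode a dynactin subunit, a Ral exchange factor and a ribosomal protein. C9 went with ANKRD28 (0.868), the transaminase gene GOT1 (0.806) and the lysosomal membrane gene SCARB2 (0.802). C8G went with ANXA9 (0.853), HCST (0.818) and AMY2 (0.804). Each r is over 15 arrays and the highest of many, so it carries no test.

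The genes that act just before and around the terminal steps were read from a list of 21, of which 10 had a probe and all 10 were measured. Against control, 7 of the 10 were higher in rIPCl and 5 met the unadjusted criteria, all higher, beside the 5.83% of all probes. The adjusted p was also under 0.05 for 4 of the 5, beside 2.26% of all probes with a 2-fold change and such a p. In rIPCe 2 of the 10 met the criteria, C3 and CLU, beside 2.18% of all probes, and 0 had an adjusted p under 0.05 by limma. With slide as a fixed block, 1 of the 10 met the criteria in rIPCl and 1 in rIPCe, beside 3845 and 2557 of the 43603 probes. C3AR1, C5AR2, the carboxypeptidases that trim C5a and the perforin-type genes PRF1 and MPEG1 had no probe under this naming.

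Among the genes of the C5 convertases, C3, whose fragment is part of every C5 convertase, rose in rIPCl by 2.64 on the log2 scale (limma adjusted p = 0.0156) and had a difference of 1.24 in rIPCe (adjusted p = 0.210). C3 was also the pathway gene that met the unadjusted criteria in rIPCl versus rIPCe, at 1.41 (limma unadjusted p = 0.00205, adjusted p = 0.979). C2, the protease of the classical and lectin convertase, rose in rIPCl from 9.63 ± 1.03 to 11.38 ± 0.84 (1.76, limma adjusted p = 0.0483). CFB, the protease of the alternative convertase, rose from 10.90 ± 0.31 to 12.02 ± 0.21 (1.11, adjusted p = 0.0224). C4A differed by 0.16 (adjusted p = 0.836).

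Regulators moved in both directions. CLU, which encodes clusterin, a fluid-phase inhibitor of the membrane attack complex, rose in rIPCl from 14.80 ± 1.04 to 16.82 ± 0.18 (2.02, limma adjusted p = 0.0277) and was at 16.29 ± 0.72 in rIPCe (1.48, adjusted p = 0.206). VTN, which encodes vitronectin, another fluid-phase inhibitor of the complex, differed by 1.15 (limma adjusted p = 0.139). C4BPA, which encodes the alpha chain of the C4b-binding protein, differed by 0.65 (adjusted p = 0.138). For VTN the fit left out control 2 and control 4, whose spots the scanner software marked as outliers.

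CD59, the membrane protein that stops C9 from polymerizing, had 7.32 ± 0.46 in control, 7.46 ± 0.51 in rIPCe and 7.06 ± 0.31 in rIPCl. Its differences from control were 0.13 (limma adjusted p = 0.858) and -0.27 (adjusted p = 0.544). CD55, which speeds the decay of convertases on the cell's own membrane, differed in rIPCl by -0.23 (limma adjusted p = 0.580). CD46, a membrane cofactor for the cleavage of C3b and C4b, fell in rIPCl by 0.63 on the log2 scale, a difference of -0.63 (limma adjusted p = 0.0314), with less than a 2-fold change, and its rIPCe difference was -0.70 (adjusted p = 0.166). All adjusted p values under 0.05 of these genes were lost with slide as a random block, under which 0 of the 43603 probes had one in rIPCl versus control.

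**Figure D4:**
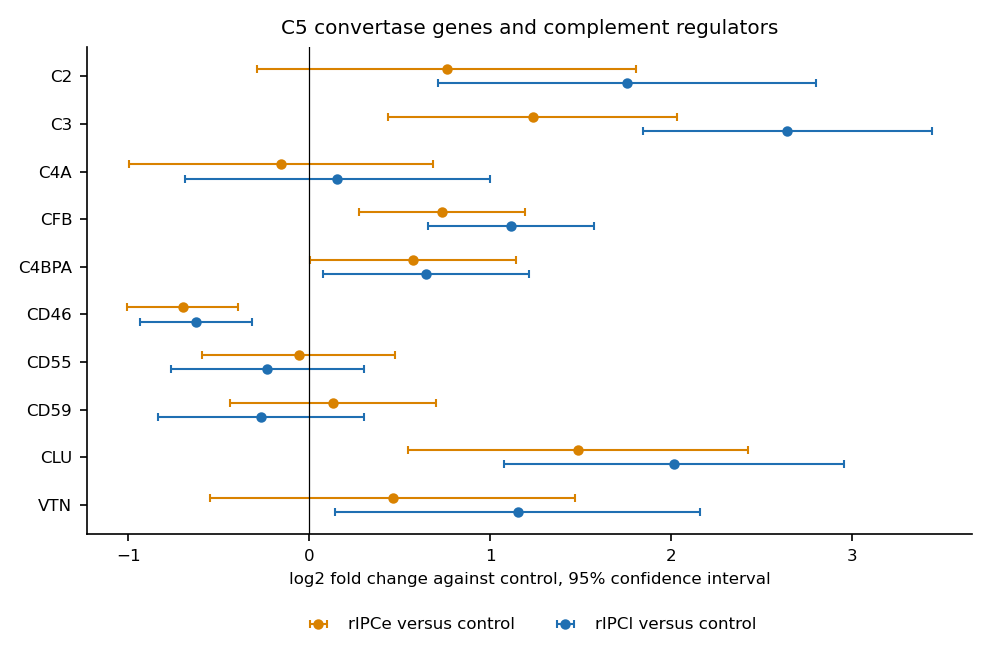
Log2 fold change against control (horizontal axis) with the 95% confidence interval from limma for the 10 measured genes of the C5 convertases and the complement regulators (vertical axis), rIPCe and rIPCl, n = 5 arrays a group except VTN, with 3 control arrays. C3 and CLU have the highest rIPCl values, 2.64 and 2.02, while CD46 lies below 0 and the CD59 intervals include 0 in both groups.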

How the data were processed

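Total RNA of 15 kidneys (control, rIPCe and rIPCl, 5 each) was hybridized to 1-colour Agilent arrays. The deposited intensity values are scanner output that the authors made with Agilent Feature Extraction 11.0.1.1 (gProcessedSignal, background subtracted). The genome build is not given in the sources used here. Spots marked as outliers were set missing. The log2 signals of the other non-control spots were quantile normalized, after the study's methods, and spots of a probe were averaged. The deposited value table held the same linear signals for 43603 of 43603 probes (within a relative tolerance of 1e-06) and served as an alternative. RefSeq accessions named 6686 probes through the pig RefSeq table.

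Groups came from the sample titles. limma 3.58.1 (R 4.3.3) fitted the 3 group means over all 15 arrays, with Benjamini-Hochberg adjustment over all probes. The methods name a t-test, which was run as an alternative. Other alternatives were the scaling, normexp (offset 50), filters on dim and outlier spots, the samples in the fit, replicate and slide blocks, and leaving out each array. Normexp was run on the median signal, as the mean signal was not used here. The fit was tested on simulated data. No 2 arrays were alike within noise (highest r 0.992). The members and the gene lists were chosen with earlier results of these data known. The text names every member probe, the listed pathway genes that met the unadjusted criteria in a comparison, and C3, CD59, CLU and VTN in any case. C4A, C4BPA, CD46, CD55 and the marker genes were named after their values were seen. Listed pathway and marker genes were read by their brightest probe. All 10 measured pathway genes counted in the text are named in it, while 1 other complement gene and 1 gene close to C7 are not reported here. The study states a 2-fold change and a p under 0.05, and its methods name Benjamini-Hochberg adjustment, so counts are given with the p unadjusted and adjusted. The number of arrays limits the precision. With 1 array per pig, p-values measure the spread between arrays of a group, in which pig, array and slide cannot be told apart.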

Additional observations from a re-analysis of the deposited data

Results flagged for a closer look

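C5AR1 probe 1 on control 1 had a log2 signal of 11.84, and the next control array had 10.69. The gap was 0.765 of the range of the 5 control arrays, past Dixon's 95% critical value for 5 samples. It was the only such value among 30 groups of 5 arrays (10 probes in 3 groups), where chance gives about 1 in 20. The macrophage and monocyte markers of control 1 summed to 16233, the highest of the control arrays, and their part in the value was not tested.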

How the results depend on the processing

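Of 609 recomputed differences of the 10 probes in 3 comparisons, 533 kept their direction and their side of an adjusted p of 0.05, 33 lost the call, 22 gained it and 21 turned in sign. Of the 30 results recomputed, 3 had the call in the main fit, C5 probe 1, C7 and C9 probe 1 in rIPCl versus control. All 33 losses fell on these 3, since the other results had no call to lose. The probes past the unadjusted criteria (3 in rIPCl versus control) numbered 1 with normexp, 1 with slide as a fixed block (C8G, lower, and none of C6) and 3 to 5 without 1 array, with 5 without rIPCl 1. In rIPCe versus control (3) they numbered 1 with normexp, 0 with slide as a fixed block and 3 in each case without 1 array. In rIPCl versus rIPCe (0) there was 1 with slide as a fixed block, C8G, and 0 without any 1 array. Of the 43603 probes, 2540 met these criteria in rIPCl versus control in the main fit. With normexp 718 did, with slide as a fixed block 3845, and without 1 array 2093 to 3012. In rIPCe versus control the counts were 952, 180, 2557 and 772 to 1365 in the same order. In rIPCl versus rIPCe they were 229 in the main fit and 1132 with slide as a fixed block. The probes with a 2-fold change and an adjusted p under 0.05 in rIPCl versus control (0) numbered 3 with the 75th percentile scaling, 3 with dim probes left out, 2 with only the 10 arrays compared, 2 with the methods' t-test and 0 to 4 without 1 array. The most, 4, came without control 1, and 2 came without rIPCl 1. The 2 with the methods' t-test were C6 probes 1 and 2. Over all probes this joint rule was counted in the main fit only, where 2.26% met it. The counts under the other settings thus have no share beside them. The probes with an adjusted p under 0.05 whatever the fold (3), a count chosen after seeing the data, numbered 7 with the 75th percentile scaling, 6 with dim probes left out, 6 with only the 10 arrays compared, 5 with the methods' t-test (C7 not among them), 0 with slide as a fixed block and 0 with slide as a random block. Without 1 array they numbered 0 to 7, being 0 without control 2, 3 or 4 or rIPCl 3, 4 or 5, 1 without rIPCl 2, 5 without rIPCl 1 and 7 without control 1. Of the 43603 probes, 2736 had such a p in the main fit, 7728 with the 75th percentile scaling and 1989 with only the 10 arrays compared. The methods' t-test gave 1548, the fixed block 479 and the random block 0. With dim probes left out it was 3109 of 29864. Without 1 array it was 49 to 4913, the fewest without rIPCl 5 and the most without rIPCl 1. The 75th percentile scaling put the median of all probes at -0.11 in rIPCl versus control, and the cause of the other changes was not tested.

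With the replicate number as a block, 0 probes had an adjusted p under 0.05 whatever the fold in rIPCl versus control, and 3 still met the unadjusted criteria. Same-numbered arrays did not deviate together (r from -0.26 to 0.07 over 15 pairs), so the numbers were not taken as a pairing.

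Signs turned as follows. With slide as a fixed block C8G was -1.06 in rIPCl versus control, and in rIPCl versus rIPCe C6 probe 2 was -0.78, C6 probe 3 was 0.043, C5AR1 probe 1 -0.37 and C5AR1 probe 2 -0.20. With slide as a random block C6 probe 2 was -0.091 and C6 probe 3 was 0.060, and the mean of the probes of C6 gave 0.029. Without 1 array, the rIPCl versus rIPCe difference ranged from -0.46 to 0.24 for C6 probe 1, from -0.37 to 0.40 for C6 probe 2, from -0.38 to 0.25 for C6 probe 3 and from -0.35 to 0.13 for C8G.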
